A study of Mus musculus with 10 samples.

Results

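The enzymes that build, lengthen and desaturate fatty acids were followed in RNA of the mouse spinal cord as 10 genes, chosen by symbol as the rows *Acaca*, *Acacb*, *Fasn*, *Elovl1*, *Elovl5*, *Elovl6*, *Scd1*, *Scd2*, *Fads1* and *Fads2* of a table of 25232 genes. All 10 were found. The libraries came from female mice of 90 days on the strain that the labels give as C57BL/6 and the methods as C57BL/6J, 5 wild type (WT) and 5 SOD1 G93A. The SOD1 G93A mouse carries many copies of a human *SOD1* gene with a mutation of familial amyotrophic lateral sclerosis (ALS), under the promoter of that human gene, so the transgene is not restricted to a cell type. The WT mice were littermates without it, and each library was of bulk tissue. The lumbar region is named in the methods, while the labels say spinal cord alone.

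The authors deposited 1 value of expression for each gene, the base mean, which is their mean over all 10 libraries of the read counts divided by size factors. WT and SOD1 G93A libraries are combined in it. The values below are therefore levels in the pooled tissue of both genotypes, no difference between the genotypes was computed, and the spread between mice is unknown. The base means of all genes summed to 22158933, which is what an average library held after scaling. Counting alone would leave an error of at least 0.206% on the base mean of *Scd2*, the highest of the 10, and of at least 1.4% on that of *Acacb*, the lowest, if the size factors lay near 1.

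Fatty acid synthesis starts in the cytosol from acetyl-CoA. Acetyl-CoA carboxylase turns it into malonyl-CoA, and fatty acid synthase joins such units into palmitate. Elongases of the endoplasmic reticulum then lengthen the chain, stearoyl-CoA desaturases place the first double bond into a saturated chain, and the front-end desaturases add double bonds to dietary polyunsaturated chains. In the nervous system these chains are used for membranes and, in large amounts, for myelin.

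The 10 genes together held 0.326% of all normalized counts, a base mean of 72340 in sum. To compare genes, each base mean was divided by the gene's length in kb of merged exons (all annotated exons of a gene, overlaps counted once), which gives a level per kb. The median level per kb was 1108 for the 10 enzymes and 63.5 for the 20360 genes that had a length and a base mean above 0. Above the level of that median gene were 9 of the 10, and 6 of the 10 lay in the highest 10% of genes, which began at a level of 532 per kb. Per kb of coding sequence *Fasn* was not in the highest 10% and *Elovl6* was, with 84.6% and 92.5% of genes below them. The order from the top was *Scd2*, *Scd1*, *Fads2*, *Fads1*, *Elovl5*, *Fasn*, *Elovl1*, *Elovl6*, *Acaca* and *Acacb*, and the first level was 81.1 times the last.

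**Figure D1:**
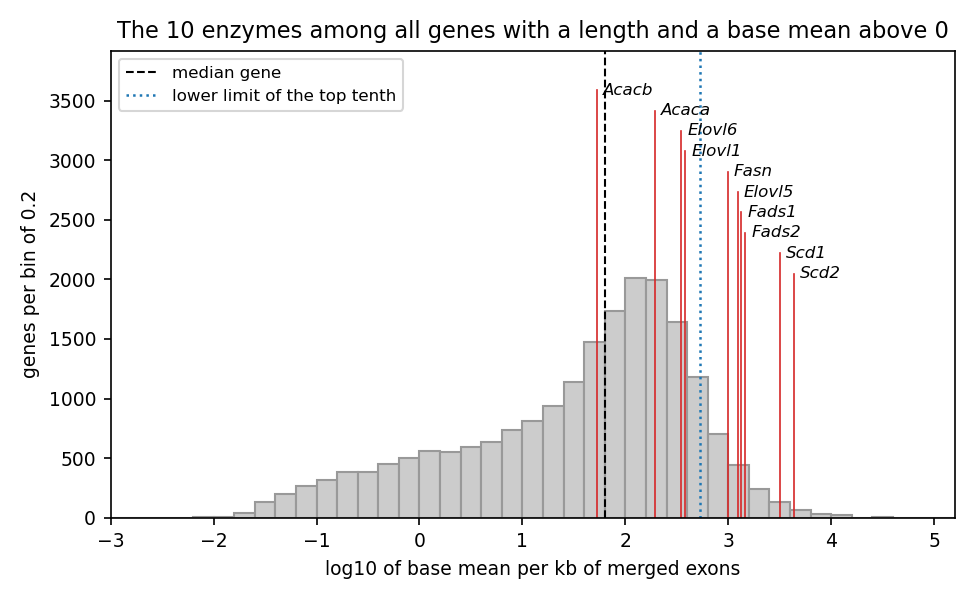
Histogram of log10 of the base mean per kb of merged exons for 20360 genes, with a red line for each of the 10 enzymes, a dashed line at the median gene (63.5 per kb) and a dotted line where the highest 10% of genes begin (532 per kb). *Acacb* lies left of the median gene, *Acaca*, *Elovl6* and *Elovl1* lie between the lines, and the other 6 lie in the highest 10%.

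The desaturases of saturated chains stood highest. *Scd2*, the stearoyl-CoA desaturase that predominates in the nervous system, lies on chromosome 19 of GRCm38 from 44293674 to 44306864 on the plus strand. Its base mean of 23503 was the highest of the 10 genes and corresponded to a level of 4301 per kb, number 114 from the top of the 20360 genes. *Scd1*, best known from liver, fat and skin, lies on the minus strand of the same chromosome from 44394455 to 44407879. Its base mean was 15429 and its level 3154 per kb, number 170. *Scd2* and *Scd1* together made up 55.5% of the summed level per kb of the 10 enzymes. The level of *Scd2* was 1.36 times that of *Scd1* per kb of merged exons and 1.51 times per kb of coding sequence.

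The 4 *Scd* genes of the mouse lie near each other on chromosome 19 and are close copies, so the base means depend on whether a read can be placed on one of them. The coding sequence of *Scd1* had an identity of 89.6% with *Scd2*, 90.4% with *Scd3* and 84.1% with *Scd4* in GENCODE M21. The longest run of coding bases that *Scd1* shares with *Scd2* without a difference was 147 bases, longer than a read of 100 bases. A stretch of 100 bases that leads into this run is shown for all 4 genes, because reads from here fit more than 1 gene nearly or exactly and only uniquely mapped reads were counted. Capitals mark the 5 positions at which the 4 genes are not all alike, and each line is written 5′ to 3′ along the gene from GENCODE M21. In GRCm38 the stretches lie at chr19:44401726-44401825 (*Scd1*, minus strand), chr19:44299682-44299781 (*Scd2*, plus strand), chr19:44235844-44235943 (*Scd3*, plus strand) and chr19:44338983-44339082 (*Scd4*, plus strand), each within 1 coding exon.
Scd1: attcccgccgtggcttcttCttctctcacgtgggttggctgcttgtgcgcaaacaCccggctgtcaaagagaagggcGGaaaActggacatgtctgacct
Scd2: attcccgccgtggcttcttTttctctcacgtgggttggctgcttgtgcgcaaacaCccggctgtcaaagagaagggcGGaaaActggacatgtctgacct
Scd3: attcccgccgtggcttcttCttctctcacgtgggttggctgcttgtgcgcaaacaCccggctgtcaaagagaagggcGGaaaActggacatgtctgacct
Scd4: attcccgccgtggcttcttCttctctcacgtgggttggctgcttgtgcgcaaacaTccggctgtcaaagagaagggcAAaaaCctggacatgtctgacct

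*Scd1* and *Scd3* are identical over this stretch, and *Scd2* differs from both at 1 position. Over whole transcripts such stretches were few. Of the 4888 different stretches of 100 bases in the annotated *Scd1* transcripts, 126 (2.58%) also stood in a transcript of another gene, most often *Scd3*. For *Scd2* it was 48 of 5461 (0.879%), all of them shared with *Scd1*. With stretches of 50 bases the shares were 4.56% for *Scd1* and 3.97% for *Scd2*. A microRNA gene, *Mir5114*, overlaps 61 exon bases of *Scd2* (1.12%) on the same strand. The other *Scd* genes had low levels. *Scd3* had a base mean of 212 and a level of 59.6 per kb, just under the median gene, and *Scd4* had a base mean of 5.98 and a level of 1.59 per kb. *Scd1* and *Scd2* held 99.2% of the summed level per kb of the 4 genes, and *Scd3* held 0.793%.

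The front-end desaturases came next. *Fads2*, the first and rate-limiting desaturase on the way from dietary linoleic and alpha-linolenic acid to the long polyunsaturated chains, lies on chromosome 19 from 10062765 to 10101746 on the minus strand. Its base mean was 4799 and its level 1456 per kb, number 560. *Fads1*, which acts later on the same way and yields arachidonic and eicosapentaenoic acid, lies beside it from 10182888 to 10196877 on the plus strand. Its base mean was 6430 and its level 1336 per kb, number 628. Which of the pair stood higher depended on the length used. The level of *Fads2* was 1.09 times that of *Fads1* per kb of merged exons, 0.82 times per kb of the longest transcript and 0.751 times per kb of coding sequence. The *Fads* genes are less alike than the *Scd* genes, with an identity of 66% between the coding sequences of *Fads1* and *Fads2* and a longest shared run of 17 bases. No stretch of 100 bases of either gene stood in a transcript of another gene. The neighbouring *Fads3* had a level of 155 per kb, and the level of *Fads2* was 9.41 times as high. *Fads1* and *Fads2* together made up 91.8% of the summed level of *Fads1*, *Fads2*, *Fads3* and *Fads6*.

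Among the elongases, *Elovl5* had the highest level. *Elovl5*, which lengthens polyunsaturated chains between the steps of *Fads2* and *Fads1*, lies on chromosome 9 from 77917364 to 77984519 on the plus strand. Its base mean was 4345 and its level 1234 per kb, number 707. *Elovl6*, which takes palmitate to stearate, lies on chromosome 3 from 129532355 to 129638495 on the plus strand and had a base mean of 2239 and a level of 348 per kb, number 3249. *Elovl1*, which makes very long saturated and monounsaturated chains for sphingolipids, lies on chromosome 4 from 118428093 to 118432953 on the plus strand and had a base mean of 1045 and a level of 383 per kb, number 2967. Per kb of merged exons *Elovl5* stood 3.54 times as high as *Elovl6* and 3.22 times as high as *Elovl1*. Per kb of coding sequence it stood 1.73 times as high as *Elovl6* and 3.88 times as high as *Elovl1*. The order of *Elovl1* and *Elovl6* turned with the length, since *Elovl1* was at 1.1 times the level of *Elovl6* per kb of merged exons and at 0.446 times per kb of coding sequence.

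All 7 elongase genes of the mouse were in the table, and the 3 followed here held 64.6% of their summed level per kb. *Elovl5* alone held 40.6%. *Elovl4*, an elongase of very long chains, had a level of 491 per kb and *Elovl7* one of 424, both above *Elovl1* and *Elovl6* on this scale. Per kb of coding sequence *Elovl4* was at 0.568 times and *Elovl7* at 0.722 times the level of *Elovl6*, and per kb of the longest transcript they were at 0.858 and 0.735 times that of *Elovl1*. *Elovl2*, which acts on long polyunsaturated chains, had a level of 160 per kb. *Elovl3*, an elongase of skin and brown fat, had a base mean of 0.847. The elongases shared at most 61.7% of their coding bases in any pair, and the longest shared run was 23 bases, both in the pair *Elovl2* and *Elovl5*. A processed pseudogene, Gm11295, shared 57 of 6564 stretches of 100 bases (0.868%) with *Elovl6*. An exon of *Cdc20* on the opposite strand overlapped 53 of the 2726 exon bases of *Elovl1* (1.94%), and the strand setting of the authors' counting is not stated.

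*Fasn*, the gene of fatty acid synthase, lies on chromosome 11 from 120805846 to 120824547 on the minus strand. With a base mean of 10762 it was number 3 of the 10 by counts, and with a level of 983 per kb it was number 6 of the 10 and number 967 of all genes. *Fasn* held 14.9% of the summed base mean of the 10 enzymes and 7.31% of their summed level per kb. The level of *Fasn* per kb was 5.12 times that of *Acaca*, or 3.08 times per kb of coding sequence. None of its 11113 stretches of 100 bases stood in a transcript of another gene.

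The carboxylases had the lowest levels of the 10. *Acaca*, which encodes the cytosolic acetyl-CoA carboxylase that supplies malonyl-CoA for synthesis, lies on chromosome 11 from 84129672 to 84401651 on the plus strand. Its base mean was 3276 and its level 192 per kb, number 5590. *Acacb* encodes the carboxylase at the mitochondrial outer membrane, whose malonyl-CoA restrains the entry of fatty acids for oxidation. It lies on chromosome 5 from 114146535 to 114250761 on the plus strand and had a base mean of 511 and a level of 53.1 per kb, number 10810 and the only one of the 10 below the median gene. The level of *Acaca* was 3.62 times that of *Acacb* per kb of merged exons, 5.92 times per kb of the longest transcript and 6.69 times per kb of coding sequence.

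*Acaca* was the gene of the 10 that shared the most sequence with another gene. A processed pseudogene of it, Gm5182, lies on chromosome 12, and its own level was not analysed here. Of the 17278 different stretches of 100 bases in the *Acaca* transcripts, 4098 (23.7%) also stood in a transcript of another gene, 4070 of them in Gm5182, against 0 of 9533 for *Acacb*. *Acaca* and *Acacb* themselves are 66.4% identical in coding sequence, with a longest shared run of 29 bases. One coding exon of *Acaca* of 216 bases stands in the pseudogene without a difference, and a read that lies wholly within it has at least 2 equal places in the genome. The first 100 bases of that exon, shown to make this visible, read the same in *Acaca* (chr11:84311267-84311366, plus strand, GRCm38) and in Gm5182 (chr12:10155285-10155384, plus strand, GRCm38).
Acaca: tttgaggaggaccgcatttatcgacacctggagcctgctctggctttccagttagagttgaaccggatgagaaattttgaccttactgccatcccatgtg
Gm5182: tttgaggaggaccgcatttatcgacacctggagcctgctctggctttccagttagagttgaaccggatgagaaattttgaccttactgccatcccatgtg

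To see the effect if no read had been counted on shared stretches, the exon length was reduced by their share of all stretches. The level of *Acaca* would then be about 252 per kb in place of 192. Per kb of merged exons it would still stand below *Elovl6*, whose level computed in the same way was 351, and above *Acacb*. The reduction was made for merged exons alone. Per kb of the longest transcript, without it, *Acaca* was at 344 and *Elovl6* at 376. Whether *Acaca* would stay below *Elovl6* on that scale after such a reduction was not tested. How many read pairs were lost was not tested, since a pair can be placed by the mate that lies outside the shared stretch.

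**Figure D2:**
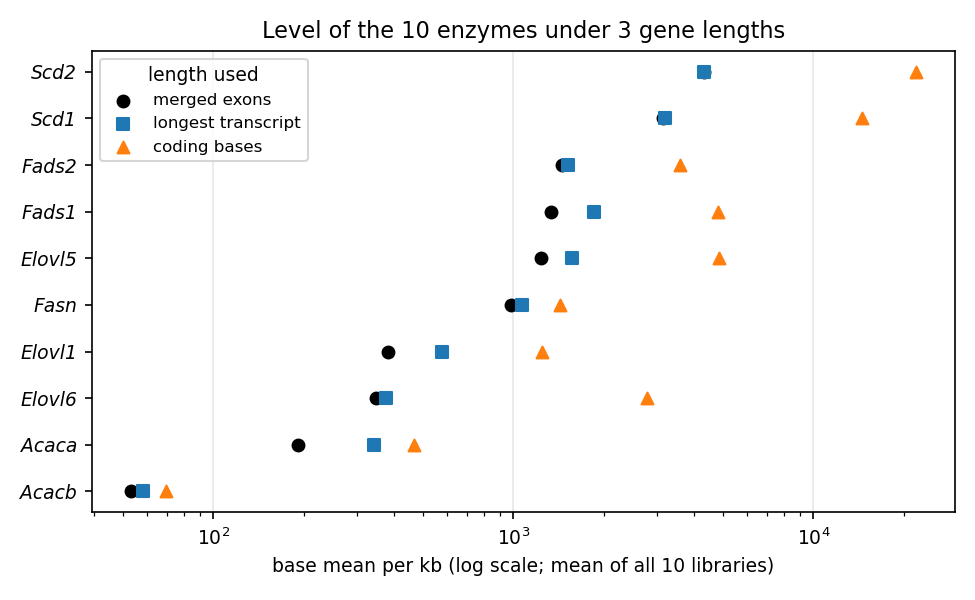
Base mean per kb of the 10 enzymes on a log scale, with the length taken as merged exons (black circles), the longest transcript (blue squares) or the longest coding sequence (orange triangles). *Scd2* and *Scd1* lie at the top and *Acaca* and *Acacb* at the bottom under each length, while *Fads2*, *Fads1* and *Elovl5* change places and *Elovl6* passes *Fasn* and *Elovl1* on the coding scale.

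The spread between mice, which would say which neighbours in the order differ, is not contained in a mean over all libraries. The order was therefore compared under 3 lengths of a gene. Of the 45 pairs that the 10 genes form, 40 stood in the same order under all 3 lengths. The 5 others were *Fads2* with *Fads1*, *Fads2* with *Elovl5*, *Fads1* with *Elovl5*, *Fasn* with *Elovl6*, and *Elovl1* with *Elovl6*. *Scd2* and *Scd1* held the upper places and *Acaca* and *Acacb* the lower ones under the 3 lengths. For *Acaca* the margin was small per kb of the longest transcript, where *Elovl6* was at 1.09 times its level. Stretches shared with other genes were not taken into account in this comparison. By the base mean itself, which favours long transcripts, 7 pairs turned against the order per kb of merged exons, and 5 of them were pairs in which *Fasn* or *Acaca* passed another enzyme.

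The genes differed widely in how much of the transcript is coding. The coding sequence of *Scd2* had 1074 bases against 5455 in its longest transcript (19.7%), that of *Scd1* 1065 against 4832 (22%) and that of *Elovl6* 801 against 5951 (13.5%). For *Acacb* the coding sequence made up 83.6% of the length of the longest transcript, for *Fasn* 74.7% and for *Acaca* 74%. These 3 enzymes, large proteins of several domains, had coding sequences between 7035 and 7512 bases. *Scd2* stood at 4.38 times the level of *Fasn* per kb of merged exons and at 15.3 times per kb of coding sequence.

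**Figure D3:**
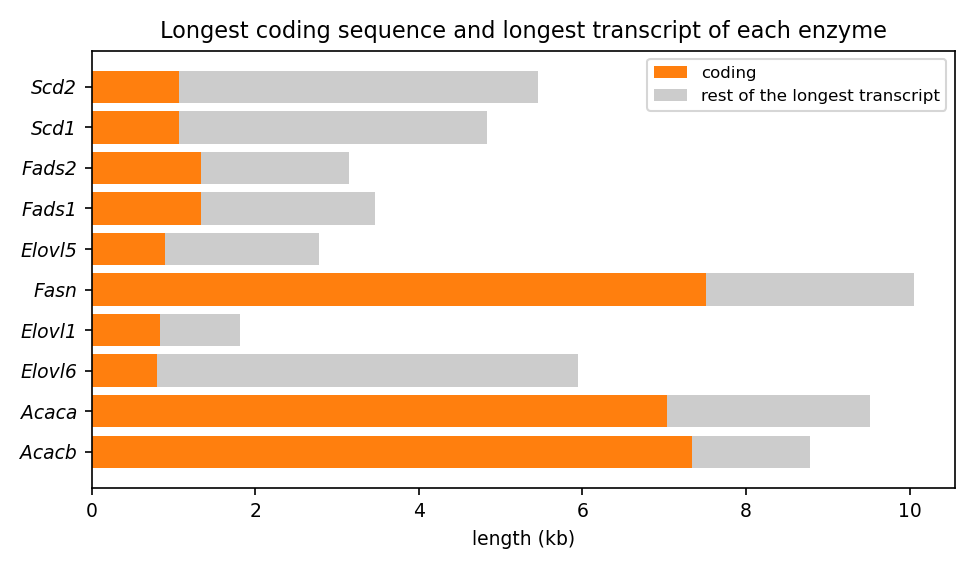
Length in kb of the longest coding sequence (orange) and of the rest of the longest annotated transcript (grey) for each of the 10 enzymes, in the order of their level per kb of merged exons. *Fasn*, *Acaca* and *Acacb* have over 7 kb of coding sequence, and the other 7 genes have between 801 and 1341 coding bases.

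The 13 lists of the pathway held 47 genes besides the 10 enzymes. Above the median gene were 39 of the 47 and in the highest 10% of genes 14, with a median level of 236 per kb. No test was made between them and the 10 enzymes, since genes are not replicates. In the list named carbon supply all 7 genes were above the median gene. That list also holds genes that act on acetyl-CoA carboxylase or its product. *Acly*, the ATP citrate lyase that makes cytosolic acetyl-CoA, was at 2243 per kb and *Mlycd*, which degrades malonyl-CoA, at 152. The level of *Acly* was 2.28 times that of *Fasn*. *Mid1ip1*, whose protein promotes the assembly of acetyl-CoA carboxylase, had a level of 1827 per kb. In the list of carboxylase control, the AMP-activated kinase subunit *Prkaa1* was at 353 per kb, and *Prkaa2* and the biotin ligase *Hlcs* were both at 72.

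The partners of the elongases spanned a wide range. *Tecr*, the enoyl-CoA reductase of the last elongation step, had a level of 4946 per kb, which was 4.01 times that of *Elovl5* and 1.15 times that of *Scd2*. Per kb of coding sequence *Tecr* was at 2.06 times the level of *Elovl5* and 0.456 times that of *Scd2*. *Hacd3*, one of the dehydratases of the cycle, had 1876 per kb, and *Hsd17b12*, the ketoacyl-CoA reductase, had 1009. *Hacd4* was the lowest partner at 10.1 per kb. The electron carriers of the desaturases lay between *Cyb5a* at 261 and *Cyb5b* at 1026 per kb. All 6 genes of the separate mitochondrial route of fatty acid synthesis were measured, at levels from 26.7 (*Cbr4*) to 278 per kb (*Hsd17b8*, listed as *H2-Ke6*), with none in the highest 10% of genes. Acyl-CoA synthetases activate fatty acids, and the 5 in the list were all of the *Acsl* family. Each of the 5 was above the median gene, from *Acsl1* at 139 to *Acsl3* at 1284 per kb. *Fa2h*, which hydroxylates the fatty acids of myelin galactolipids, had a level of 1407 per kb.

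Among 8 genes of transcriptional control, *Insig1*, which retains the precursor of the sterol regulatory element binding proteins, was highest at 936 per kb. *Srebf2*, the member of that family known for sterol synthesis, had 678 per kb, and *Srebf1*, known for activating fatty acid synthesis genes, had 440. *Mlxipl*, which encodes the glucose-responsive activator of the same enzymes in liver, was lowest at 25.5. *Nr1h2* had 425 per kb and *Nr1h3* 55.7, the pair of liver X receptors.

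**Figure D4:**
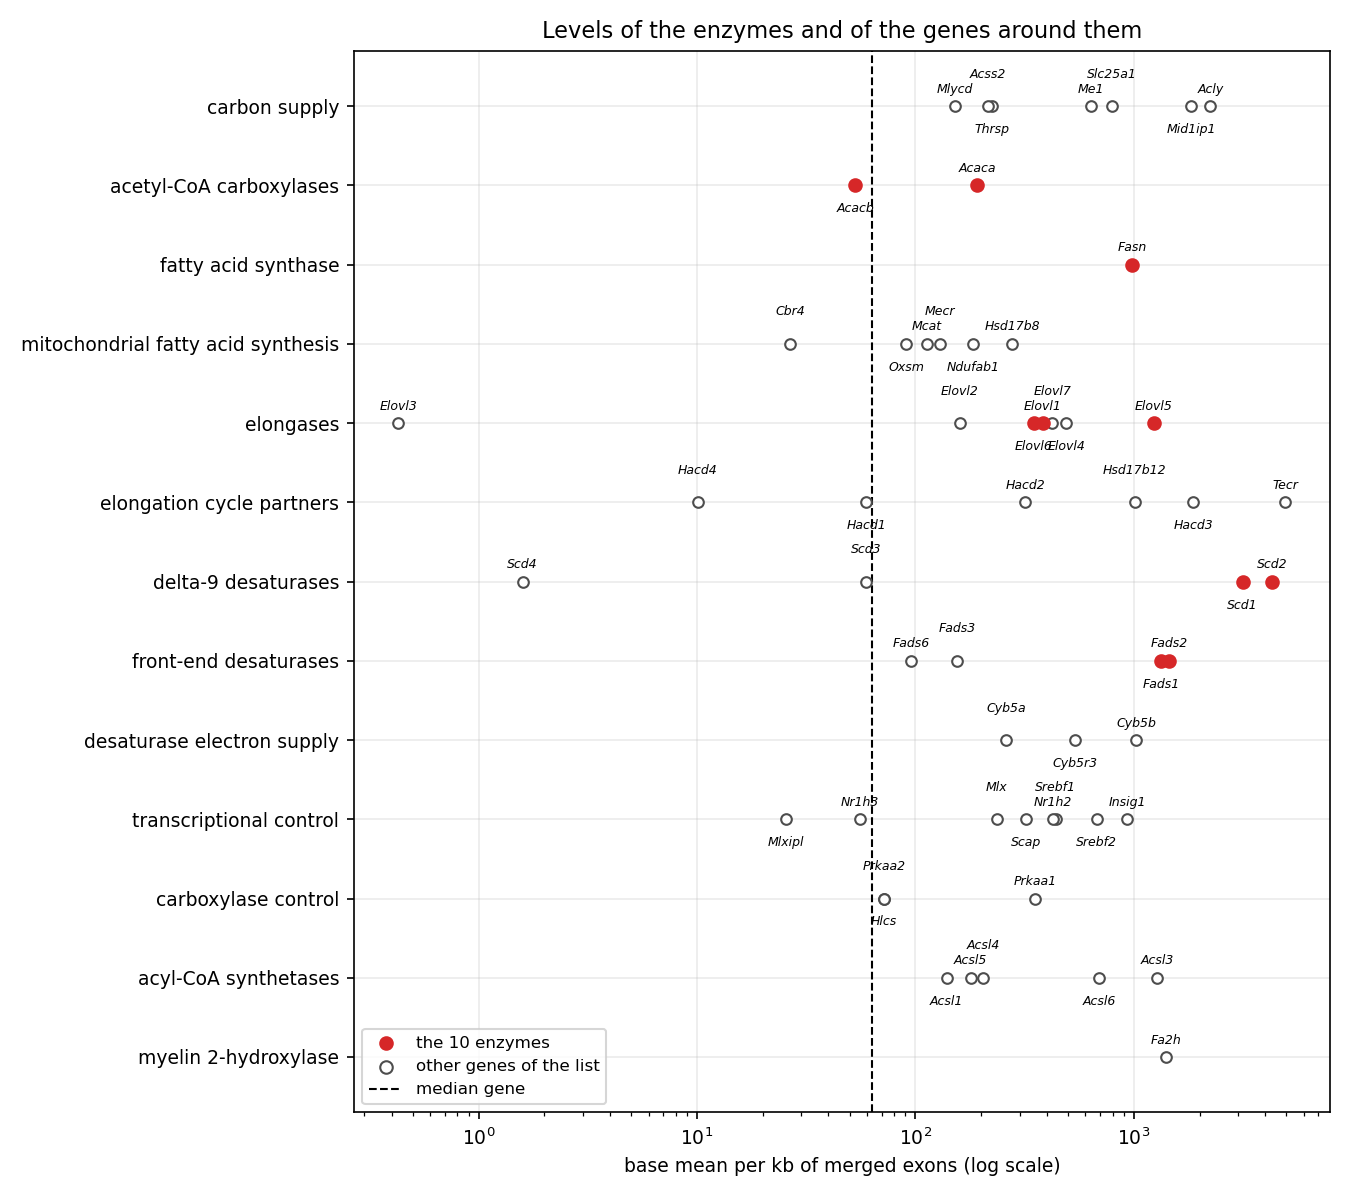
Base mean per kb of merged exons on a log scale for the 57 genes of 13 pathway lists, 1 row per list, with the 10 enzymes in red and the other genes open; the dashed line is the median gene (63.5 per kb). *Tecr* (4946) is the open point right of *Scd2* (4301), and *Elovl3* (0.429) is the lowest point.

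RefSeq promoter windows of GRCm38.p6, from 250 bases before to 50 after a gene's start, were given for 7 of the 10 genes, as 8 windows. *Scd1*, *Scd2* and *Fads1* were not among them. The letters CCAAT, on either strand, stood in 4 of the 8 windows (*Elovl1*, *Acacb*, *Elovl5* and *Fasn*), against 37.4% of all 32851 windows. GGGCGG stood in 3 windows, both windows of *Elovl1* and that of *Fads2*, against 35.7% of all. CACGTG stood in the window of *Elovl5* alone, against 7.15% of all, and TATAAA in that of *Acacb* alone, against 13.6%. These are matches of letters and not sites of binding.

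The label of the tissue was checked with marker genes. Of the oligodendrocyte, *Mbp* had the highest level of all genes at 37739 per kb, and *Mog* was also in the highest 10% of genes at 3138 per kb. Markers of neurons (4 of 4), astrocytes (4 of 4), microglia (4 of 4) and endothelium (2 of 2) were above the median gene, and so was the Schwann cell marker *Prx* (86.8 per kb). The 6 *Hox* genes of the caudal cord had base means from 152 to 536, and the forebrain genes *Emx1* and *Neurod6* had base means of 0.993 and 78.9. Of the fat cell, which is also rich in *Scd1* and *Fasn*, all 5 markers lay far below the median gene, with base means from 0.29 (*Lep*) to 8.86 (*Fabp4*). Of skeletal muscle, *Acta1* had a level of 163 per kb (base mean 251), above the median gene, and *Ckm* one of 36.9 (base mean 108), below it. Of liver, *Apoa2* had a level of 402 per kb (base mean 216), above the median gene, and *Alb* one of 20 (base mean 46.8), below it. *Apoa2* was at 1.05 times the level of *Elovl1* per kb of merged exons. It was at 0.723 times per kb of the longest transcript and 0.566 times per kb of coding sequence. How much each cell type adds to the levels of the 10 enzymes was not tested, and in bulk tissue the number of cells of a type and the RNA per cell cannot be told apart.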

How the data were processed

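RNA of the spinal cord of 5 WT and 5 SOD1 G93A females was sequenced as stranded, paired reads of 100 bases. According to the methods and the submitters' processing notes, the authors filtered reads with Fastp, aligned them to mm10 with HISAT2 2.1.0, counted uniquely mapped reads with featureCounts 2.0.2 and ran DESeq2. The gene annotation and the strand setting are not given in the sources used here. The deposited base mean, a signal averaged by the authors over all 10 libraries, was the only value used. The other columns hold the authors' own comparison of the genotypes (fold change, its error, statistic and p-values) and were left out, so no test between genotypes was made and no depth per library is known.

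Base means were divided by merged exon length from GENCODE M21 (GRCm38), matched by symbol (24312 of 25232 symbols, 96.4%, had a single gene), and ranked over 20360 genes. *Hsd17b8* was matched through a RefSeq synonym. Shared stretches of 100 bases were searched in all GENCODE M21 transcripts on both strands, and coding sequences were aligned globally (Biopython 1.88). Alternatives were the longest transcript, the coding length, no length, a base mean of at least 10 and protein-coding genes alone. Removing shared stretches was added after the data were seen. Named genes were the 10 members and, of each list, the highest and lowest gene. Others were named after their values were seen. Some marker genes are not reported here. Members and lists were chosen with earlier results of these data known. Steps were tested on simulated data. Python 3.11.15, numpy 2.4.6, pandas 2.3.3, scipy 1.17.1 and matplotlib 3.10.9 were used.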

Additional observations from a re-analysis of the deposited data

How the results depend on the processing

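The number of enzymes above the median gene was 9 under the longest transcript, the coding length, a base mean of at least 10 and protein-coding genes alone, and 10 without length correction. The number in the highest 10% of genes was 6 under the same settings and 7 without length correction, with *Elovl6* in place of *Fasn* under the coding length. *Scd2* was the highest of the 10 throughout, and its share of their summed level was 32% per kb of merged exons, 29% per kb of the longest transcript, 39.3% per kb of coding sequence, 32.5% by base mean and 31.9% without stretches shared with another gene. The share of genes lying below an enzyme moved by 5 percentage points or less in 39 of 50 combinations of enzyme and setting. The largest move was 20.6 percentage points, for *Acaca* without length correction. For *Acacb* the share was 46.9% per kb of merged exons, 32.2% under the coding length and 61.3% without length correction. For *Fasn* it was 95.3% per kb of merged exons and 84.6% under the coding length. Enzymes near the top of the range had little room to move up. No library could be left out, because the table holds 1 mean over all libraries. No paired analysis was possible because the same mean combines both groups and all replicate numbers. The depth of single libraries and the spread between mice limit every level and are unknown here.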
